A study of Mus musculus with 6 samples.

Results

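RNA-seq read counts of 31 genes for semaphorins, plexins and neuropilins were examined in mouse dendritic cells cultured with or without DB2313. They comprised all protein-coding genes in the count table whose symbols name a semaphorin of classes 3 to 7 (20 genes), a plexin of families A to D (9 genes) or a neuropilin (2 genes), out of 54532 annotated features. Dendritic cells are the immune cells that show captured antigen to T cells. There were 3 libraries labelled as control and 3 of cells given DB2313. The study used this small molecule as an inhibitor of Spi1, the myeloid transcription factor also called PU.1. The labels call the cells dendritic cells, whereas the study's text describes its DB2313 RNA-seq as done on macrophages. All cells were kept in the same serum-supplemented medium. The labels gave no dose, time, strain, sex or age, and did not say whether the libraries came from separate cultures or animals, so p-values measure only the spread between these libraries, which may be technical. In the count table, Spi1 stands in the column names read as DB2313 and BMDC, commonly short for bone marrow-derived dendritic cell, in those read as control. Every direction given here rests on that reading.

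Semaphorins are guidance proteins that share a large extracellular sema domain. Class 3 members are secreted, whereas those of classes 4 to 7 are held in the membrane, Sema7a by a lipid anchor. Most signal through plexins, single-pass receptors whose cytoplasmic part inactivates small GTPases of the Ras and Rap families and loosens integrin adhesion and the actin cytoskeleton. Neuropilins have no signalling domain of their own and serve as co-receptors, for class 3 semaphorins together with A-type plexins and for vascular endothelial growth factors. In dendritic cells, Sema4a is known as a T cell costimulator, Plxna1 as a protein needed for contact with T cells and for migration through narrow spaces, and Nrp2 as a carrier of polysialic acid that aids migration towards lymph node chemokines.

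Total counts ranged from 16146743 to 19764677 per library. Within each group, every pair of libraries differed by more than sampling noise, with a chi-square per degree of freedom of 5.03 to 5.57 between control libraries and 7.97 to 19.3 between DB2313 libraries, where replicates 1 and 3 were the most distant. Genes longer than 6000 bp lay at a median of -0.11 in DB2313 replicate 1 and 0.060 in DB2313 replicate 3 (log2 ratio to the mean library), and 14 of the 21 members that could be tested were of that length. Among the DB2313 libraries, replicate 1 had the lowest CPM (counts per 1000000 reads of the scaled library) for 13 of these 21 members and replicate 3 the highest for 11. Each log2 fold change was therefore also fitted with an offset for gene length and without each library in turn. The dendritic cell label was checked against markers, and 18 of 19 dendritic cell markers and 14 of 14 macrophage markers were expressed above the filter. Their summed CPM was 17879.7 to 18612.9 in control and 15118 to 17908 with DB2313 for dendritic cell markers, and 10416.5 to 11796 and 9307 to 10179 for macrophage markers. Of those tested, 3 dendritic cell markers (Itgax, Irf4, Batf3) were lower and 2 (Clec10a, Clec9a) higher, and 8 macrophage markers were lower and 2 higher, among the latter Trem2, described below, against 10.6% of all genes in either direction. Neutrophil markers (3 of 10 tested higher, none lower) summed to 4421 to 4973 and 4487 to 5895 CPM, mast cell and basophil markers (2 of 8 tested higher, none lower) to 2519 to 2719.8 and 2568 to 3079, and T cell markers to 192 to 229.7 and 196 to 283. Sums were 92.6 to 101 and 94.8 to 108 CPM for endothelial markers, with Cldn5 at 0 in all libraries, and 72.5 to 94.0 and 76.7 to 100.4 CPM for fibroblast markers, with Col3a1, Dcn and Lum at 0 in all. Plasmacytoid dendritic cell markers summed to 178 to 199.8 and 180.1 to 201 CPM, with Klk1 at 0 in all libraries, and B cell markers to 2.89 to 4.06 and 5.35 to 6.80 CPM. Pecam1 and Vwf carried most of the endothelial sum, where no other marker exceeded 1.96 CPM (Kdr). Thy1 carried most of the fibroblast sum, with the rest at 2.76 CPM (Pdgfrb) or less. Bst2 and Tcf4 carried most of the plasmacytoid sum, with the rest at 2.01 CPM (Ccr9) or less. The endothelial, fibroblast and plasmacytoid sums therefore do not show that such cells were present. The part of any listed cell type in the results below was not tested, and in bulk RNA fewer cells of a type cannot be told apart from less RNA per cell.

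The first question was which members these cells expressed. Levels were compared between genes as RPKM, which is CPM divided by the gene's length in kilobases. A mean of at least 1 RPKM over the 6 libraries was reached by 13 of the 31 genes, namely 7 membrane semaphorins, 4 plexins and both neuropilins. The 7 genes with the most reads, which were Plxnd1, Sema4a, Plxnc1, Nrp2, Sema7a, Sema4d and Plxna1, held 92.8% to 93.02% of all member reads in control and 90.9% to 91.4% with DB2313.

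The membrane semaphorins were led by Sema4a and Sema7a, the latter a ligand of integrin alpha1 beta1 and of Plxnc1. In control, Sema4a stood at 114 ± 5.21 RPKM and Sema7a at 104 ± 6.67 RPKM (SD, n = 3 each). With DB2313 they stood at 78.5 ± 3.98 and 91.2 ± 1.41 RPKM. In RPKM, the order of the pair was the opposite in control and treated cells. This order rests on the deposited gene lengths (5406 bp for Sema4a, 3298 bp for Sema7a), since in CPM Sema4a was above Sema7a in every library. The ratio of Sema4a to Sema7a in RPKM, taken after the values were seen, was 1.15, 1.04 and 1.09 in the controls and 0.897, 0.831 and 0.851 in the treated libraries. Sema4a passed the test described below and Sema7a did not, so the separation of this ratio was largely fixed in advance. Sema4d, also called CD100, followed at 42.5 ± 0.747 RPKM in control. Sema4b, Sema4c, Sema6b and Sema6d came next, between 4.61 and 7.05 RPKM in control, where only Sema6b and Sema6d of these neighbours overlapped in their libraries. Sema4f, Sema6a and Sema6c were below 1 RPKM.

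Plexins showed a similarly steep order. Plxnd1, a receptor of Sema3e, stood at 108 ± 6.94 RPKM in control, Plxnc1 at 44.5 ± 3.00 and Plxna1 at 26.0 ± 1.96 (SD, n = 3). Plxnb2 was much lower, at 4.46 ± 0.109 RPKM. The other 5 plexins were between 0.0802 and 0.336 RPKM in control. Among them was Plxnb1, the high-affinity receptor of Sema4d, with 10 to 15 reads per library. Nrp2 stood at 32.3 ± 1.91 RPKM and Nrp1 at 4.56 ± 0.515 RPKM in control, so Nrp2 was the prevailing neuropilin.

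Secreted semaphorins were nearly absent from the counts. The 7 class 3 genes together had 15, 17 and 19 reads in the controls and 15, 31 and 26 reads with DB2313, and none passed the filter on low counts. The highest of them by RPKM were Sema3f, with 4, 4 and 8 reads in control and 1, 5 and 4 with DB2313, Sema3c, with 3, 3 and 4 against 9, 7 and 5 reads, higher in all treated libraries but untested, and Sema3d, with 2, 5 and 2 against 0, 9 and 5 reads. Sema3b had no read in any control library, which allows a level of up to 0.188 CPM in a library when 3 counts are taken as the limit. Sema4g, Sema5a and Sema5b were also below the filter, and no untested member had over 9 reads in any library. Differences in these 10 genes were not detectable at this depth. Sema3a, Sema3c, Sema3d and Sema3e all lie on chromosome 5, from 12383385 to 17730268 (GRCm38), and Sema3b and Sema3f are near each other on chromosome 9.

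**Figure D1:**
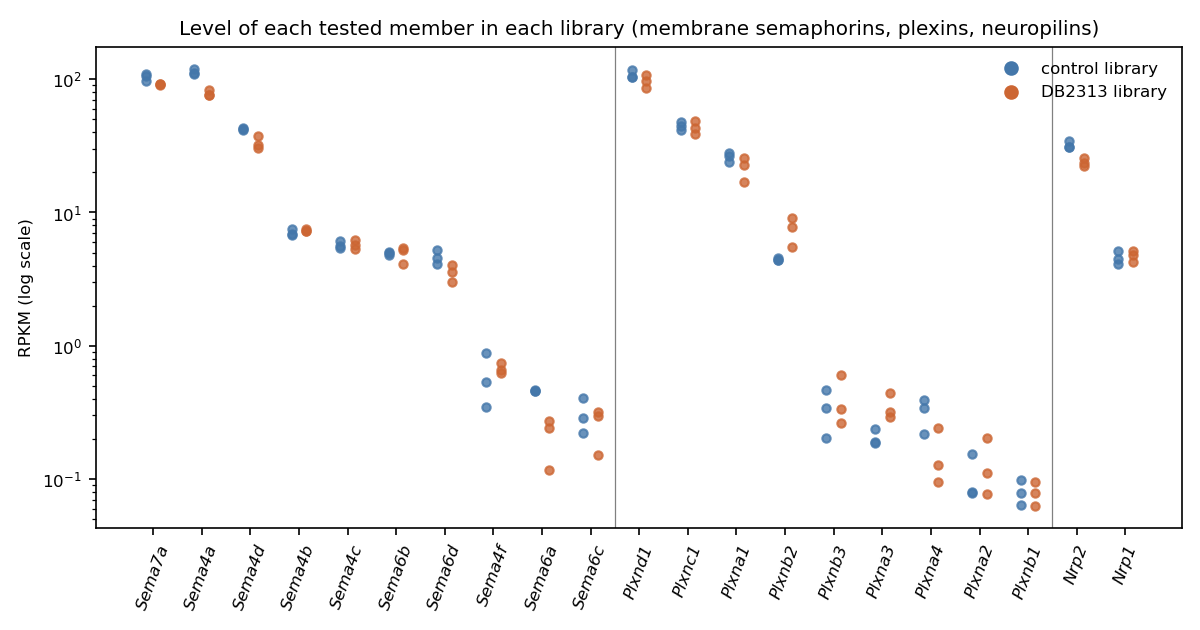
RPKM of the 21 tested members in each library, on a log axis, with control libraries in blue and DB2313 libraries in orange. Membrane semaphorins are on the left, plexins in the middle and neuropilins on the right, and the levels span from Plxnb1 near 0.08 RPKM to Sema4a, Sema7a and Plxnd1 near 100 RPKM.

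To ask which members changed with DB2313, each gene was tested by edgeR's quasi-likelihood method, with p-values adjusted by Benjamini and Hochberg's procedure across 14174 genes. Of the 31 members, 21 were tested, 5 were lower and 1 was higher at an adjusted p under 0.05, and 15 did not pass. Over all genes tested, 10.6% passed, 5.94% as lower and 4.66% as higher. The lower members were Sema4a, Sema4d, Sema6a and Sema6d among the semaphorins and Nrp2 among the co-receptors, whereas the higher one was the plexin Plxnb2. The median log2 fold change was -0.038 over the tested members and 8.2e-04 over all genes. For 8 of the 21 members, the 6 that passed plus Sema7a and Plxna3, every treated library lay on the same side of every control, against 27.4% of all genes tested (12.9% higher, 14.5% lower). An unadjusted p under 0.05 was found for 10 members and for 23.3% of all genes tested. Of the 10 tested semaphorins, all membrane-bound, 4 were lower and none was higher by edgeR or by DESeq2. DESeq2, which called 10.4% of genes, also called 5 members lower and 1 higher. By unadjusted edgeR p, 5 of the 10 were under 0.05, against the same 23.3%.

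**Figure D2:**
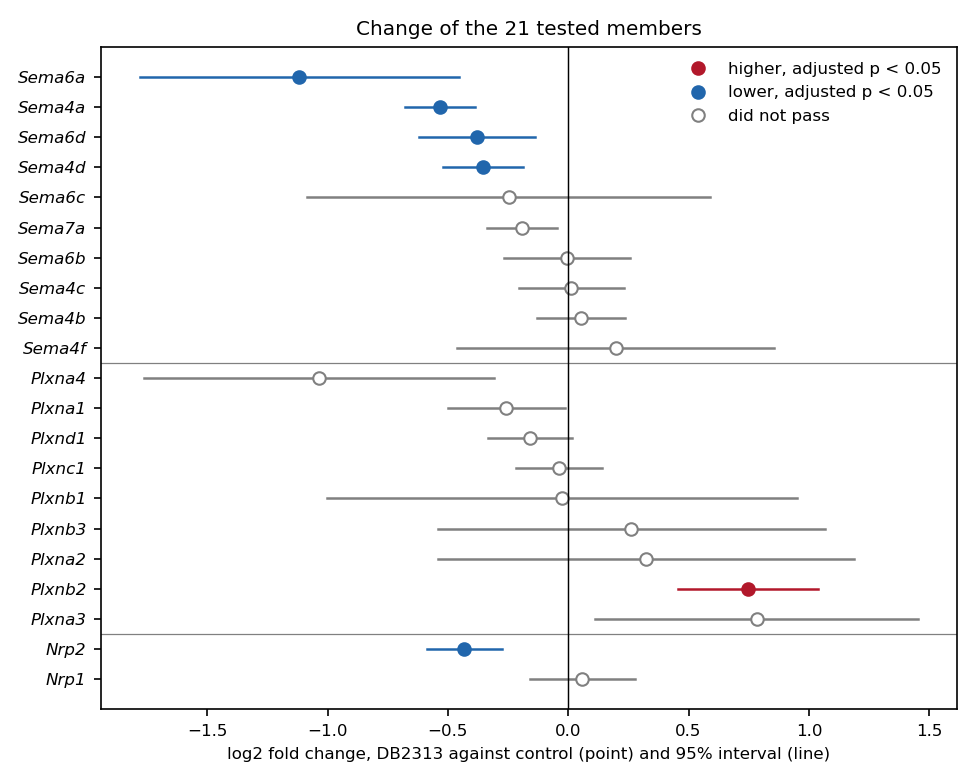
Log2 fold change of each tested member, DB2313 against control, as a point with its 95% interval from edgeR, for membrane semaphorins (top), plexins (middle) and neuropilins (bottom). Filled blue points (Sema6a, Sema4a, Sema6d, Sema4d and Nrp2) were lower and the filled red point (Plxnb2) was higher at an adjusted p under 0.05, and the widest intervals belong to genes below 1 RPKM.

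Among the ligands, Sema4a gave the firmest change. It is a class 4 semaphorin of antigen-presenting cells that costimulates T cells, and its gene lies on the minus strand of chromosome 3 (ENSMUSG00000028064, 88435959 to 88461182, GRCm38). Control replicates 1, 2 and 3 had 602, 594 and 646 CPM, and their DB2313 counterparts by number 449, 410.2 and 413 CPM. All values below follow this order. The treated libraries lay close together and well below the controls. The mean fell from 614 ± 28.2 to 424 ± 21.5 CPM (SD, n = 3 each), a log2 fold change of -0.53 ± 0.07 (SE) with an edgeR adjusted p of 1.4e-04. The estimate ranged from -0.58 to -0.49 over 15 alternatives and passed in each. Against Sema4b, another class 4 semaphorin with no call, the ratio of Sema4a reads was 15.6, 14.04 and 16.8 in control and 10.5, 10.05 and 10.2 with DB2313. This ratio, chosen after the values were seen, needs no scaling between libraries. It sets a called gene against one without a call, so its separation was largely fixed in advance. Its exact two-sided permutation p of 0.1, the smallest that 3 against 3 libraries can give, is therefore no added support.

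Sema4d encodes CD100, which is abundant on T cells and is shed from the surface by proteases. Its gene is on the minus strand of chromosome 13 (ENSMUSG00000021451, 51685529 to 51793747). CPM was 332, 325 and 321 in control and 234, 245 and 286 with DB2313. Each treated library was below each control, with DB2313 replicate 3 the nearest to them. The mean fell from 326 ± 5.74 to 255 ± 27.6 CPM (SD, n = 3 each), a log2 fold change of -0.36 ± 0.08 (SE, edgeR adjusted p 0.00832). Without control replicate 1 the adjusted p was 0.0525 and without DB2313 replicate 2 it was 0.0759, at log2 fold changes of -0.34 and -0.32. None of the 10 T cell markers passed by edgeR or DESeq2, which called 10.6% and 10.4% of all genes tested. Their median log2 fold change was 0.13, with 1 of the 10 below 0, and their summed CPM overlapped between the groups. By edgeR, 2 had an unadjusted p under 0.05 (23.3% over all genes), Cd8a and Cd5, each with a higher estimate. The part of T cells in the Sema4d change was not tested.

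Sema6d is a transmembrane ligand of Plxna1 that can also act as a receptor. It is on the plus strand of chromosome 2 (ENSMUSG00000027200, 124089969 to 124667770). CPM was 43.1, 54.9 and 47.98 in control and 31.9, 37.8 and 42.4 with DB2313, so the groups were just apart. The mean fell from 48.7 ± 5.92 to 37.4 ± 5.25 CPM (SD, n = 3 each), a log2 fold change of -0.38 ± 0.11 (SE, edgeR adjusted p 0.0453). The call was lost with scaling by library totals (adjusted p 0.0765) and in 4 of the 6 fits without 1 library, at adjusted p of 0.248 without control replicate 2, 0.113 without control replicate 3, 0.0901 without DB2313 replicate 1 and 0.139 without DB2313 replicate 2.

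Sema6a, a class 6 ligand of Plxna2 and Plxna4, was the lowest of the called members in expression. It is on the minus strand of chromosome 18 (ENSMUSG00000019647, 47235598 to 47368870). It had 67, 64 and 64 reads in control and 17, 48 and 35 reads with DB2313. The control libraries were nearly identical and DB2313 replicate 1 was the lowest. The mean fell from 4.05 ± 0.0606 to 1.85 ± 0.722 CPM (SD, n = 3 each), a log2 fold change of -1.12 ± 0.31 (SE, edgeR adjusted p 0.031). The adjusted p was 0.104, 0.0999 and 0.0885 without control replicates 1, 2 and 3, and 0.0682 without DB2313 replicate 1, at a log2 fold change of -0.84 in the last.

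The other 6 tested membrane semaphorins did not pass. Sema7a came nearest, with 320, 348 and 363 CPM in control and 305, 301 and 296 with DB2313. Its groups did not overlap, but its log2 fold change of -0.19 ± 0.07 (SE) had an edgeR adjusted p of 0.0922. It passed in 1 of 15 alternatives, that with the offset for gene length (adjusted p 0.0304), and the highest adjusted p among them was 0.352. For Sema4b, Sema4c and Sema6b, all at 4.94 to 7.05 RPKM in control, the log2 fold changes were 0.05, 0.01 and -0.01, with 95% intervals within -0.27 and 0.26. Sema4f and Sema6c were too low for a narrow estimate, with intervals of -0.46 to 0.86 and -1.09 to 0.59.

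**Figure D3:**
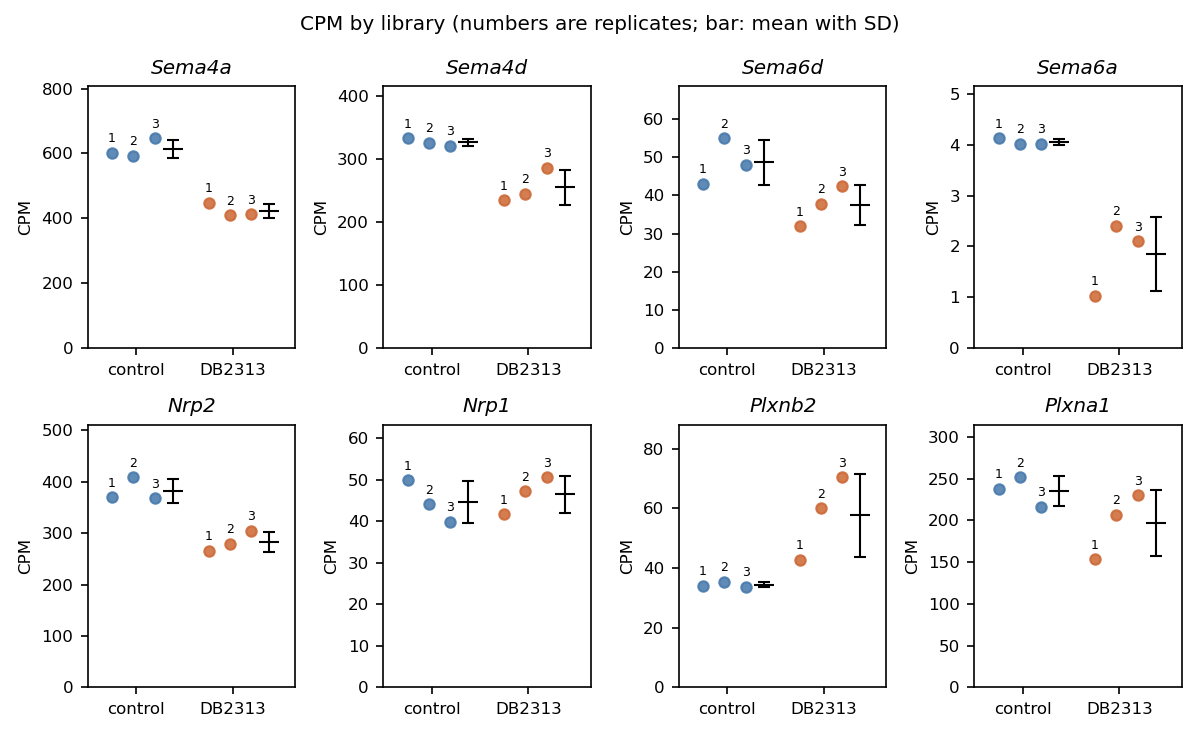
CPM in each library for the 5 lower members (Sema4a, Sema4d, Sema6d, Sema6a, Nrp2), for the higher one (Plxnb2) and for Nrp1 and Plxna1, which did not pass. Points are libraries numbered by replicate, bars give the mean and SD of 3 libraries, all axes start at 0, and DB2313 replicate 1 is the lowest treated library for 7 of these 8 genes, Sema4a being the exception.

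The neuropilins parted. Nrp2 (ENSMUSG00000025969, chromosome 1, 62703285 to 62818695, plus strand) was at 369.7, 408 and 368 CPM in control and at 266, 279 and 304 CPM with DB2313. All treated libraries were below all controls. The mean fell from 382 ± 22.6 to 283 ± 19.6 CPM (SD, n = 3 each), a log2 fold change of -0.43 ± 0.07 (SE, edgeR adjusted p 0.00143), which passed in all 15 alternatives, from -0.49 to -0.35. Nrp1 (ENSMUSG00000025810, chromosome 8, 128358604 to 128503363, plus strand) was at 49.9, 44.1 and 39.9 CPM in control and 41.7, 47.2 and 50.5 CPM with DB2313. Its groups overlapped, and the log2 fold change was 0.06 with a 95% interval of -0.16 to 0.28 (edgeR adjusted p 0.793). In reads, a ratio again chosen after the values were seen, Nrp2 exceeded Nrp1 by 7.41, 9.25 and 9.22 times in control and by 6.37, 5.92 and 6.02 times with DB2313. The ratio was lower in every treated library, and its exact two-sided permutation p was 0.1, again the smallest possible. It too sets a called gene against one without a call, and so restates the counts above without adding support.

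Among the plexins, 1 of 9 passed, a share close to the 10.6% of all genes. Plxnb2, a receptor of Sema4c and, with lower affinity, of Sema4d, lies on the minus strand of chromosome 15 (ENSMUSG00000036606, 89155549 to 89180788). CPM was 34.1, 35.4 and 33.8 in control and 42.8, 60.1 and 70.4 with DB2313. The control libraries were tight, whereas the treated ones were spread, all above the controls. The mean rose from 34.4 ± 0.843 to 57.8 ± 13.9 CPM (SD, n = 3 each), a log2 fold change of 0.75 ± 0.14 (SE, edgeR adjusted p 0.0023). Plxnb2 was higher in all 15 alternatives, from 0.58 without DB2313 replicate 3 to 0.92 without DB2313 replicate 1, with a highest adjusted p of 0.0219. Relative to Plxnd1, the most abundant plexin, its reads were 0.0446, 0.0416 and 0.0445 in control and 0.0681, 0.0844 and 0.0898 with DB2313, a ratio chosen after the values were seen.

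The abundant plexins moved less. Plxnd1 was at 764, 849.97 and 760.3 CPM in control and 629, 712 and 783 CPM with DB2313, with overlapping groups and a log2 fold change of -0.16 ± 0.08 (SE, edgeR adjusted p 0.256). Plxnc1, the receptor of Sema7a, had a log2 fold change of -0.04 with a 95% interval of -0.22 to 0.14 (edgeR adjusted p 0.841). Plxna1 was at 238, 251.5 and 216 CPM in control and 154, 207 and 230.2 CPM with DB2313. Its treated libraries reached from well below the controls into their range, and its log2 fold change was -0.26 ± 0.11 (SE, edgeR adjusted p 0.184). Plxna1 passed as lower without the filter on low counts (-0.25, adjusted p 0.0295). Without DB2313 replicate 3, Plxna1 (-0.38, adjusted p 0.00497) and Plxnd1 (-0.24, adjusted p 0.018) passed as lower in a fit that called 16.6% of all genes. Without DB2313 replicate 1, both were closer to 0, at -0.11 and -0.082, with adjusted p of 0.469 and 0.58.

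The 5 scarce plexins did not pass. Plxna4, named after its values were seen, had 90, 49 and 77 reads in control and 22, 36 and 57 with DB2313, a log2 fold change of -1.04 ± 0.34 (SE, edgeR adjusted p 0.0677). Its span overlaps that of the antisense gene Plxna4os1, which had 15 to 52 reads per library. The longest Plxna4 transcript shared no stretch of 100 bp or more with Plxna4os1 at 95% identity. Since the strandedness of the counting was not stated, reads in any shorter shared stretch could not be told apart. Plxna4 passed without DB2313 replicate 3 (-1.50, adjusted p 0.00312) and without the filter on low counts (-1.03, adjusted p 0.00572). For Plxna3 the groups did not overlap, with 24, 24 and 30 reads in control and 38, 70 and 42 with DB2313, and the edgeR adjusted p was 0.141. Among genes that overlap other members, Gm26811 at Plxna1 had 6 to 15 reads per library, Gm37121 at Nrp2 3 to 13 and D430040D24Rik at Sema4c 12 to 29. Such counts do not measure reads lost from a member. Stretches shared at 100% identity were 193 bp for Plxna1 with Gm26811 and 261 bp for Plxnb1 with Gm7628. They were 117 bp for Plxnc1 with Gm48718 and 113 bp for Plxna4 with Plxna4os3. The remaining plexins, Plxna2, Plxnb1 and Plxnb3, had 10 to 78 reads per library and overlapping groups.

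**Figure D4:**
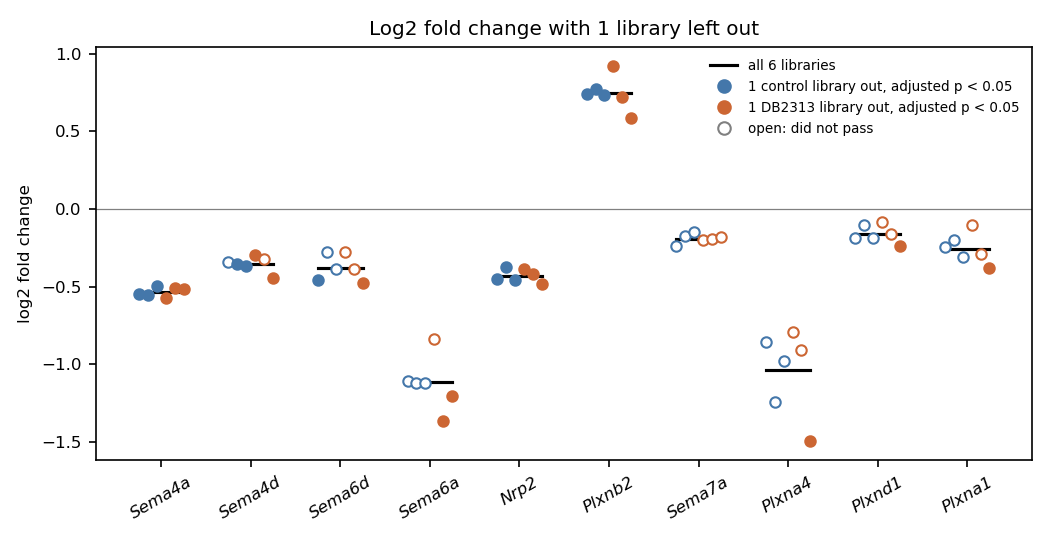
Log2 fold change of 10 members with all 6 libraries (black line) and with 1 library left out (points, blue for a control and orange for a DB2313 library), filled where the edgeR adjusted p was under 0.05. Sema4a, Nrp2 and Plxnb2 were filled throughout, Sema4d lost the call in 2 fits and Sema6d and Sema6a in 4 each, and Plxna4, Plxnd1 and Plxna1 passed in 1 fit, that without DB2313 replicate 3.

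Because DB2313 was used as a PU.1 inhibitor, the promoter windows of the members were searched for GAGGAA, the ETS core with the flanking bases that PU.1 prefers, and for the longer GAGGAAGT, on both strands. RefSeq windows (GRCm38.p6, 250 bases before to 50 after a start) were matched by symbol for 26 of the 31 members and not for Plxna1, Plxna4, Sema3b, Sema3f and Sema6a. GAGGAA was in 32.4% of the 37 member windows and in 28.3% of all 32851 windows. GAGGAAGT, which contains it, was in none of the member windows and in 3.20% of all. Of the 5 called members with a window, 1 (20%) held GAGGAA in any window, namely Sema4a, against 31.3% of all genes with a window. These 5 members had 12 windows, of which 2 held it, and other windows of Sema4a did not. Members that did not pass and held it included Plxnd1, Plxnc1 and Nrp1. A match is a description of letters and not a bound site.

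The windows of Sema4a that hold the motif are printed because it was the called member with matches, that of Plxnd1 as an abundant member with matches and no call, and those of Nrp1, Nrp2 and Plxnb2 to set the neuropilin pair and the higher member beside them. All read 5′ to 3′ on the strand of the gene, cover only bases before the start that lie outside annotated exons, and mark GAGGAA, or its reverse complement TTCCTC, in capitals. The first Sema4a window (chr3:88461183-88461432, minus strand) has matches 229 and 162 bases before the start, and the second (chr3:88459102-88459351, minus strand) 1 match 77 bases before its start. Plxnd1 (chr6:115995006-115995255, minus strand) has 2 matches, 204 and 181 bases before the start, and Nrp1 (chr8:128358823-128359072, plus strand) 1 match at 92 bases. Nrp2 (chr1:62703067-62703284, plus strand) and Plxnb2 (chr15:89180789-89181038, minus strand) have none in these letters. The other window of Plxnb2, not printed, has none either.
Sema4a, first window: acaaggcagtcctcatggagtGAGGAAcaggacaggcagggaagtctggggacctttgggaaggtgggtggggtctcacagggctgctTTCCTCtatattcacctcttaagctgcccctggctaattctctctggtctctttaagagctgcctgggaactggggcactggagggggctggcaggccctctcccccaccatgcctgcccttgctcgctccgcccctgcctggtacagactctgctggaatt
Sema4a, second window: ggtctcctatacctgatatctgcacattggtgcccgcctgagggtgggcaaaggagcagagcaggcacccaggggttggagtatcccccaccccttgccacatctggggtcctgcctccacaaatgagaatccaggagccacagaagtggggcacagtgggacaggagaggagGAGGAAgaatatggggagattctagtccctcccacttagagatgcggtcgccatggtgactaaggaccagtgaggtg
Plxnd1: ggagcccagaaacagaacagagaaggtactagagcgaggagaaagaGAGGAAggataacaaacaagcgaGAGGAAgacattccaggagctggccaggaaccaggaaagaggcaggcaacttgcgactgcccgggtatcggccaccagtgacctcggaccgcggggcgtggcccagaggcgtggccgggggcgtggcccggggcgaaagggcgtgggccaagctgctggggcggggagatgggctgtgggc
Nrp1: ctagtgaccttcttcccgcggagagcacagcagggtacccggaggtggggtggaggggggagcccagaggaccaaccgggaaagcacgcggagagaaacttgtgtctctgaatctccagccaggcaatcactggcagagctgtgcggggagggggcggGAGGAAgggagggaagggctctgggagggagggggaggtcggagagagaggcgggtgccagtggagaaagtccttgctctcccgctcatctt
Nrp2: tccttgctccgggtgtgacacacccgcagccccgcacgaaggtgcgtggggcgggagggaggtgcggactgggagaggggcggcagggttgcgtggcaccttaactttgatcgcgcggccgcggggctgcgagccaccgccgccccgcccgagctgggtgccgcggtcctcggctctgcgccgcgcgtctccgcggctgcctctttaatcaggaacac
Plxnb2: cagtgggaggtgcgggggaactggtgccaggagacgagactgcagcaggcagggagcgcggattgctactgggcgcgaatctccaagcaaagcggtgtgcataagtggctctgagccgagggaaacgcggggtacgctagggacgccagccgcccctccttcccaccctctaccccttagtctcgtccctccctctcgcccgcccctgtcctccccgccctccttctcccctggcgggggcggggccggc

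A semaphorin signal also depends on partner receptors, proteases and plexin effectors, and 72 such genes in 4 lists were read from the same fit. Of the 62 tested, 8 were lower and 3 higher, together 17.7% against 10.6% of all genes. The lists were chosen with earlier results of these data known, so the 2 shares are a description and not a test. Among partner receptors, 14 of 18 genes were tested, 4 were lower and 2 higher (42.9% called), with a median log2 fold change of -0.024. The lower ones were Met, a growth factor receptor that associates with plexins, Flt1, a VEGF receptor, and Itga1 and Itgb1, the chains of the integrin bound by Sema7a. The higher ones were Trem2 and Tyrobp (DAP12), a receptor and its adaptor that form a complex with Plxna1 in dendritic cells.

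Trem2 was at 113, 104 and 116 CPM in control and 155, 154 and 143 CPM with DB2313, with no overlap. Its log2 fold change was 0.44 ± 0.07 (SE, edgeR adjusted p 0.00131) and it passed in all 15 alternatives. Tyrobp was at 400.4, 402 and 410.5 CPM in control and 448, 478 and 476 CPM with DB2313, a log2 fold change of 0.21 ± 0.06 (SE, edgeR adjusted p 0.0494). Its groups did not overlap either, yet with the offset for gene length its log2 fold change was 0.11 with an adjusted p of 0.348, and Tyrobp passed in 8 of 15 alternatives.

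Met was at 69.4, 74.8 and 65.9 CPM in control and 30.8, 28.7 and 31.9 CPM with DB2313. The treated libraries were far below the controls, with a log2 fold change of -1.20 ± 0.09 (SE, edgeR adjusted p 9.8e-07) that passed in all 15 alternatives. Flt1 was at 15.8, 18.5 and 15.4 CPM in control and 8.99, 11.2 and 11.5 CPM with DB2313 (log2 fold change -0.65 ± 0.14, SE, edgeR adjusted p 0.00809), again without overlap. Without control replicate 2 its adjusted p was 0.0617. For the integrin chains, Itgb1 fell by 0.25 and Itga1 by 0.33 on the log2 scale, with edgeR adjusted p of 0.0258 and 0.0423. Itgb1 passed in 10 and Itga1 in 4 of 15 alternatives, with adjusted p of up to 0.16 and 0.283. Cd72, the lymphoid receptor of Sema4d, had 64 to 112 reads per library and did not pass (adjusted p 0.302). Timd2, a T cell receptor of Sema4a, had 8 reads or fewer per library and was not tested.

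Of 39 plexin effectors, 37 were tested, 3 were lower and 1 was higher, with a median log2 fold change of -0.071. The share called, 10.8%, was close to the 10.6% of all genes. Rnd3, a small GTPase without hydrolytic activity that loosens actin stress fibres, rose from 20.1, 21.7 and 20.3 to 53.4, 58.3 and 63.1 CPM. Its log2 fold change of 1.49 ± 0.10 (SE, edgeR adjusted p 2.5e-07) was the highest of all 62 genes tested in the 4 lists. Lower were Mical3, of the family of flavoprotein oxidases that act on actin and vesicle transport (-0.67, adjusted p 3.9e-04), Pak1, a kinase activated by Rac1 (-0.47, adjusted p 0.00414), and Ssh1, a phosphatase that activates cofilin (-0.37, adjusted p 0.00407). These 4 genes passed in all 15 alternatives. Of the other GTPase genes, Rac1, Rhoa, Rras and Rap1b did not pass. Rac1 had a log2 fold change of -0.13 (adjusted p 0.238), Rhoa of 0.06 (0.63), Rras of -0.19 (0.183) and Rap1b of -0.02 (0.924).

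Among 7 proteases that cut semaphorins, plexins or neuropilins, 5 were tested and 1 was lower, where 5.94% of all genes were. Mmp14, the membrane-type metalloprotease known to release Sema4d, was at 107, 105 and 113 CPM in control and 68.2, 57.0 and 59.1 CPM with DB2313. The groups were far apart, with a log2 fold change of -0.82 ± 0.09 (SE, edgeR adjusted p 2.2e-05) that passed in all 15 alternatives. Furin, which processes class 3 semaphorins, and Adam10 and Adam17 did not pass, at log2 fold changes of -0.14, 0.05 and -0.17. None of the 6 tested neuropilin ligands of 8 passed by edgeR or DESeq2, with 2 at an unadjusted edgeR p under 0.05, and 10.6% and 23.3% of all genes met these criteria. The best expressed were Tgfb1 (log2 fold change -0.10, adjusted p 0.465) and Vegfa (-0.20, adjusted p 0.194).

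**Figure D5:**
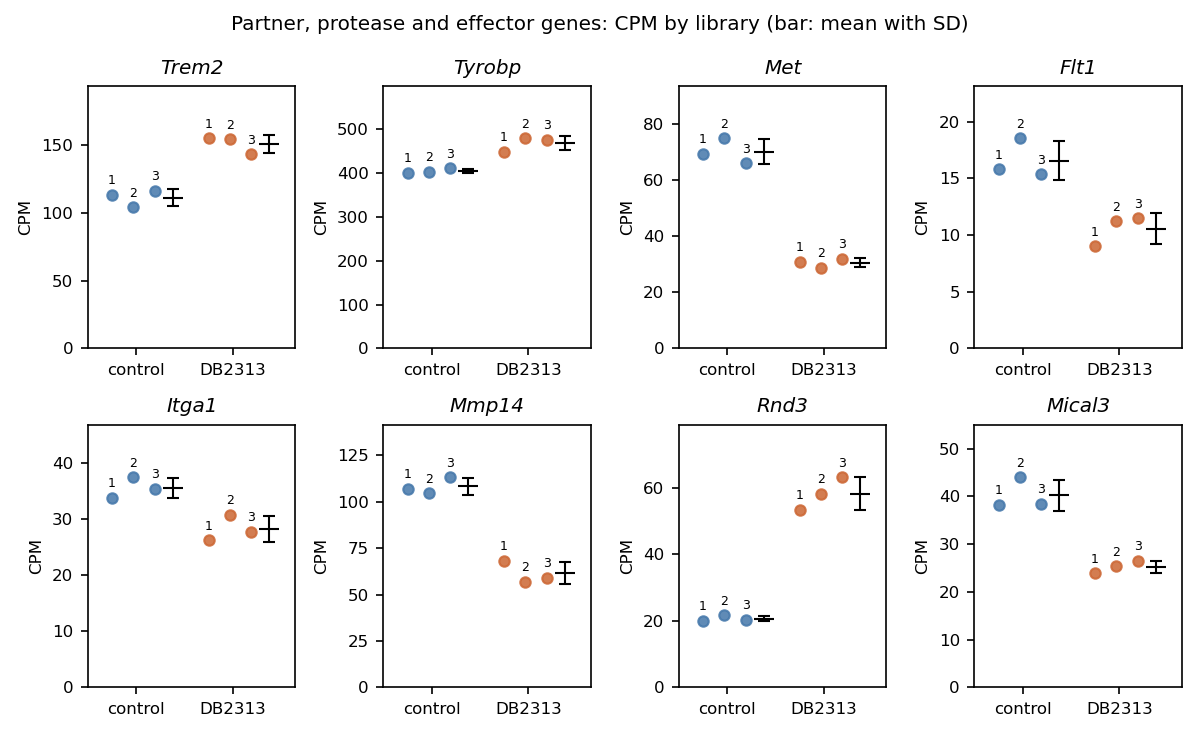
CPM in each library for partner receptors (Trem2, Tyrobp, Met, Flt1, Itga1), the protease Mmp14 and the effectors Rnd3 and Mical3, with points numbered by replicate, bars for the mean and SD of 3 libraries and axes from 0. All 8 were chosen from the called genes and separate the groups completely, as did 18 of the 62 tested list genes (29.0%) and 27.4% of all genes tested, and Trem2, Tyrobp and Rnd3 are higher with DB2313.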

How the data were processed

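Bulk RNA-seq was performed on 6 libraries. The deposited table holds unnormalised whole-number counts for each gene and library, with gene lengths. The study's methods name LifeScope for alignment and counting, whereas the submitters' processing notes list CASAVA 1.8, HISAT2 2.0.5 and featureCounts 1.5.0-p3. Build, strandedness and multi-mapping reads are not given in the sources used here. Start and end matched GENCODE M21 (GRCm38) for all 31 members and 98.3% of shared identifiers.

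Counts were tested with edgeR 4.0.16 in R 4.3.3 (TMM, filterByExpr, group as the only term). SE is the log2 fold change divided by the root of the F statistic. RPKM used the deposited lengths and TMM-scaled sizes. On simulated counts for this comparison, 65.9% of 185 tested genes changed 1.5-fold and 86.02% of 186 changed 2-fold were recovered, with 13 and 10 false calls among 14202 and 14216 genes. The simulation gave every gene the same dispersion in both groups and no trend with gene length. The real DB2313 libraries were more spread than the controls, so these rates need not hold for them. Reads carry no molecular identifiers, so floors cover counting error only. A blastn 2.17.0 search (95% identity, 100 bp) found a near-identical stretch at another locus for Sema3a.

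The alternatives were DESeq2 1.42.0, the tool named by the study, limma-voom (limma 3.58.1), 2 scalings, 2 filters, a gene-length offset (lowess span 0.3), a replicate block, both together, and leaving out each library. Named were called members, both neuropilins, the 3 highest per role by RPKM, and called list genes. Members and lists were chosen with earlier results of these data known. The lists were written from general knowledge.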

Additional observations from a re-analysis of the deposited data

How the results depend on the processing

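Over the 9 alternatives with all 6 libraries, 1 member was higher and 4 to 7 were lower. Leaving out 1 library gave 3 to 8 lower members, 7 to 17 changed genes in the 4 lists, and 739 to 2408 changed genes in all (328 to 1097 higher, 411 to 1311 lower). The highest counts came without DB2313 replicate 3 and the fewest changed genes in all without DB2313 replicate 2. What made these counts differ was not examined: the cause was not tested. Of the 6 members without a call that were followed through the alternatives (Sema7a, Plxna1, Plxna4, Plxnc1, Plxnd1, Nrp1), Plxnc1 and Nrp1 changed sign, and the other 9 were not followed. Plxnc1 was at 0.010 with the gene-length offset, at 0.0096 with this offset and the replicate block, and at -0.12 to 0.038 with 1 library left out. Nrp1 was at -0.015 to 0.15 with 1 library left out. Neither passed in any alternative.

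Libraries sharing a number were not treated as paired in the main fit. Deviations from the group means correlated at 0.0035, -0.024 and -0.12 between same-numbered libraries. These values cannot show whether such libraries shared a culture or animal. With the replicate block, 1131 genes changed against 1503, still 1 member was higher and 5 were lower, and 8 list genes against 11 passed, Itgb1, Itga1 and Tyrobp being lost.

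Precision was limited by depth for the 8 tested members below 1 RPKM and the 10 untested ones.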
